A study of Homo sapiens with 6 samples.

Results

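Adrenomedullin (ADM), angiopoietin-like 4 (ANGPTL4) and growth differentiation factor 15 (GDF15) are secreted factors whose genes are induced by hypoxia, nutrient or cell stress. They were chosen by name from the 426 genes of the authors' deposited table of changed genes, so their presence there is not a result. Genes in that table are called listed genes below. RNA was sequenced from MKN28, a human gastric cancer cell line that registries record as derived from the line MKN74, carrying either a control vector (3 samples) or short hairpin RNA against VPS35, called shVPS35 (3 samples). VPS35 is the core subunit of retromer, which recycles membrane proteins from endosomes. The study asked which transcripts differ when VPS35 is knocked down. The sources used here do not say if a single hairpin or clone was used, and with 1 knockdown group the loss of VPS35 and other effects of the hairpin cannot be told apart.

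ADM encodes a precursor that is cleaved and amidated into adrenomedullin, a vasodilator peptide acting through the receptor CALCRL with a RAMP partner, and it is a classical target of hypoxia-inducible factor (HIF). ANGPTL4 encodes a secreted inhibitor of lipoprotein lipase (LPL), and its gene is induced by peroxisome proliferator-activated receptors (PPARs), by fasting and by hypoxia. GDF15 encodes a distant member of the TGF-beta family that lowers food intake through the receptor GFRAL, and its gene is induced by DNA damage, by the integrated stress response factor ATF4 and by mitochondrial or endoplasmic reticulum stress.

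The RefSeq promoters of the 3 genes are shown here because they held a feature that the choice of genes did not use, a TATA box just before the start. Each line gives the 250 bases before the RefSeq start, 5′ to 3′ on the plus strand of GRCh38.p14, with capitals marking the TATA box and the HIF core motif, for chr11:10304823-10305072 (ADM), chr19:8363905-8364154 (ANGPTL4) and chr19:18385908-18386157 (GDF15).
ADM: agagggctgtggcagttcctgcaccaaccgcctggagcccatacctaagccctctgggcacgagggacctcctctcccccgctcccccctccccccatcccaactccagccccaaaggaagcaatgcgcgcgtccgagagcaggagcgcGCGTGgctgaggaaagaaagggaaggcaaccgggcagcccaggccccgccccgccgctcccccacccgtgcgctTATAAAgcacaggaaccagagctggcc
ANGPTL4: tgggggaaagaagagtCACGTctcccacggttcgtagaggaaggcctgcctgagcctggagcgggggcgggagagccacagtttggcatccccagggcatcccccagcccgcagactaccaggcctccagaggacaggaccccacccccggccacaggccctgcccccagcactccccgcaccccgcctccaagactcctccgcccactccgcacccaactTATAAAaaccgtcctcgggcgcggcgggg
GDF15: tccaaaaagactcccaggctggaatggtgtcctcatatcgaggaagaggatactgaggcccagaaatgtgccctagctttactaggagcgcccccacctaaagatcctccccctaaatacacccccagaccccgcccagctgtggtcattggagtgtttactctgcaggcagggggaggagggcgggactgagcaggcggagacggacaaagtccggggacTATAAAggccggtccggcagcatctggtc

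Each of these windows lies inside the longer span that GENCODE 29, used for the gene positions below, gives the gene, so the annotations differ in the start. The letters TATAAA stood on the gene's strand from 27 to 22 bases before the RefSeq start in ADM, and from 29 to 24 bases before it in ANGPTL4 and GDF15. The motif was looked for after these sequences had been seen. Within the stretch from 40 to 21 bases before the start it was found in 2.25% of all 35116 RefSeq promoter windows, which belong to 27305 coding and noncoding genes. It was found in 5.59% of the 429 windows of 278 listed genes, and in 7.59% of the 237 windows of 159 listed genes that fell. The windows of the 3 factors, which prompted the search, are counted in these shares. The HIF core motif (ACGTG or GCGTG, both strands) occurred once in ADM, as GCGTG from 101 to 97 bases before the start, and once in ANGPTL4, as ACGTG on the opposite strand from 234 to 230 bases before it. It occurred in 43.2% of all windows, so its presence in these promoters is common. No match to it was found in the GDF15 window. Neither the AP-1 motif TGACTCA, held by 4.20% of all windows, nor the E-box CACGTG, held by 6.34% and containing the HIF letters ACGTG, was found in any of the 3 windows. The promoters of ADM and ANGPTL4 were rich in G and C (68.0% and 68.8%), above the median of 58% for all windows, and that of GDF15 had 58.4%.

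The knockdown was checked first. VPS35 read 64.4, 64.3 and 67.2 in vector cells, against 12.9, 15.6 and 11.8 in shVPS35 cells, so that 20.6% of the vector mean was left. Summed over all listed genes, the values came to between 5029 and 5130 per vector sample and between 4696 and 5004 per shVPS35 sample. The table's header names no unit, read depth is unknown, and levels of different genes are therefore not ranked against each other. The authors' deposited table implies, through its raw and adjusted p-values, that they tested 16063 genes. Only genes that they called changed between these same 6 samples are in the table, so the tests of group difference below set each difference against the spread between samples and are not independent evidence. The design text calls the samples biological replicates. In bulk RNA, fewer cells of a type and less RNA per cell cannot be told apart.

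All 3 secreted factors fell in shVPS35 cells, ANGPTL4 to 20.3% of the vector mean, GDF15 to 43.0% and ADM to 49.5%. These genes were named with earlier results of these data known, and the table they come from lists 236 genes that fell out of the 16063 tested, a background of 1.47% (2.65% with those that rose), and nothing is read from the count of 3. For all 3 the groups did not overlap and the lower level passed the limma test, against a background of 50.9% of listed genes with shVPS35 samples all below vector samples (93.4% without overlap in either direction) and 54.8% of tested listed genes lower by limma (100% called in either direction).

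**Figure D1:**
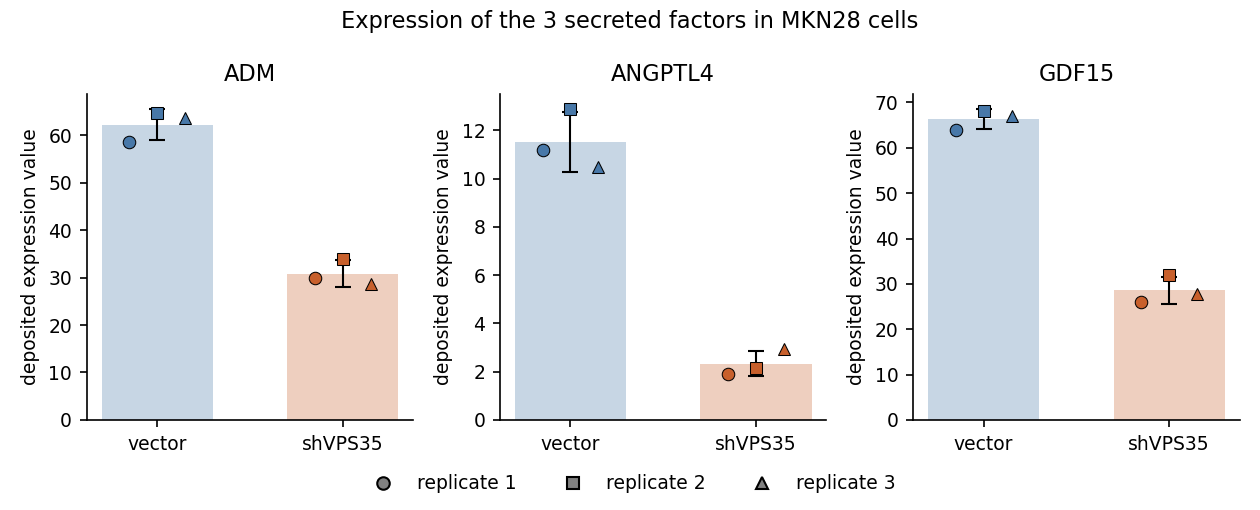
Deposited expression value (vertical axis, from 0, unit not named in the header) of ADM, ANGPTL4 and GDF15 in vector and shVPS35 samples of MKN28 cells. Bars are means, error bars SD (n = 3 per group) and symbols single samples by replicate number; every shVPS35 sample lies below every vector sample, with ANGPTL4 at 20.3% of the vector mean.

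ADM (ENSG00000148926; GRCh38, chromosome 11, 10304680 to 10307397, plus strand, protein coding) had expression values of 58.5, 64.6 and 63.6 in vector cells, against 29.8, 34.0 and 28.6 in shVPS35 cells. The lowest vector sample was 24.5 above the highest shVPS35 sample, while the SD within a group was 3.27 in vector and 2.81 in shVPS35. The shVPS35 mean of 30.8 ± 2.81 was 2.02-fold lower than the vector mean of 62.2 ± 3.27 (SD, n = 3 per group). As log2(value + 1), ADM differed by -0.99 ± 0.07 (SE; limma adjusted p = 4.0e-06). ADM lay close to the authors' own limit of an absolute log2 fold change of 1, with -1.03 in the authors' deposited table, where only 7 of the 236 listed genes that fell had a smaller fall. By p-value it nevertheless ranked 152 among the 16063 genes tested, a rank worked out from the raw and adjusted p-values of the authors' deposited table (adjusted p = 6.1e-43).

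ANGPTL4 (ENSG00000167772; chromosome 19, 8363289 to 8374373, plus strand, protein coding) had expression values of 11.2, 12.9 and 10.5 in vector cells, against 1.9, 2.17 and 2.92 in shVPS35 cells. It was the most variable of the 3 factors relative to its level, with a coefficient of variation of 10.8% in vector and 22.7% in shVPS35 samples, but the groups stood 7.54 apart at their nearest. From a vector mean of 11.5 ± 1.24 it dropped 4.94-fold to 2.33 ± 0.528 (SD, n = 3 per group). The log2(value + 1) difference was -1.92 ± 0.14 (SE; limma adjusted p = 3.9e-06). With 0.1 added in place of 1 it was -2.27, and the authors' deposited table gives -2.41 as log2 fold change. A larger fall is given there for 55 genes, and ANGPTL4 ranked 217 by p-value, worked out as for ADM.

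GDF15 (ENSG00000130513; chromosome 19, 18374731 to 18389176, plus strand, protein coding) had expression values of 63.9, 68.1 and 67.1 in vector cells, against 26.0, 31.9 and 27.9 in shVPS35 cells. The groups were separated by 32.1 at their nearest, which was 10.6 times the larger SD and the widest separation of the 3 factors on that measure (7.50 for ADM and 6.06 for ANGPTL4). The vector mean of 66.4 ± 2.17 was 2.32 times the shVPS35 mean of 28.6 ± 3.02 (SD, n = 3 per group). The log2(value + 1) difference was -1.19 ± 0.08 (SE; limma adjusted p = 1.7e-06). GDF15 has in the authors' deposited table a log2 fold change of -1.25, with a smaller fall in 69 listed genes. Its rank by p-value, worked out as for ADM, was 143.

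Among the shVPS35 samples, ADM and GDF15 were each highest in sample 2, at 54.6% and 48.0% of the vector mean. VPS35 was also highest there, at 23.9% of its vector mean. So was the sum over all listed genes, at 5004 in sample 2, against 4853 in sample 1 and 4696 in sample 3. ANGPTL4 was instead highest in sample 3, at 25.4%, and lowest in sample 1, at 16.5%. Such differences between 3 samples of a group are given as a description only.

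The size of the fall was compared between the factors by their ratio within each sample, which does not depend on scaling between samples. ANGPTL4 over ADM was 0.191, 0.199 and 0.165 in vector cells, against 0.0637, 0.0639 and 0.102 in shVPS35 cells. The ratio was lower in every shVPS35 sample, 2.47-fold on average, a log2 difference of -1.30 with a range of -1.65 to -0.69 over pairs of samples. ANGPTL4 over GDF15 was 0.175, 0.189 and 0.156 in vector cells, against 0.0732, 0.0681 and 0.105 in shVPS35 cells. Here too no samples overlapped, and the log2 difference was -1.10 (range -1.47 to -0.57), or 2.15-fold. GDF15 over ADM was 1.09, 1.05 and 1.06 in vector cells, against 0.871, 0.939 and 0.974 in shVPS35 cells, a log2 difference of -0.20 (range -0.33 to -0.11), or 1.15-fold. Each of the 3 comparisons gave p = 0.1 in an exact 2-sided permutation test, before and after Benjamini-Hochberg adjustment over the 3 pairs, and 0.1 is the smallest p that 3 against 3 samples allow. With 5 added to every value, which is above the shVPS35 level of ANGPTL4, the log2 differences were -0.26 for ANGPTL4 over ADM (exact permutation p = 0.2) and -0.08 for ANGPTL4 over GDF15 (exact permutation p = 0.6), so the groups no longer separated fully.

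**Figure D2:**
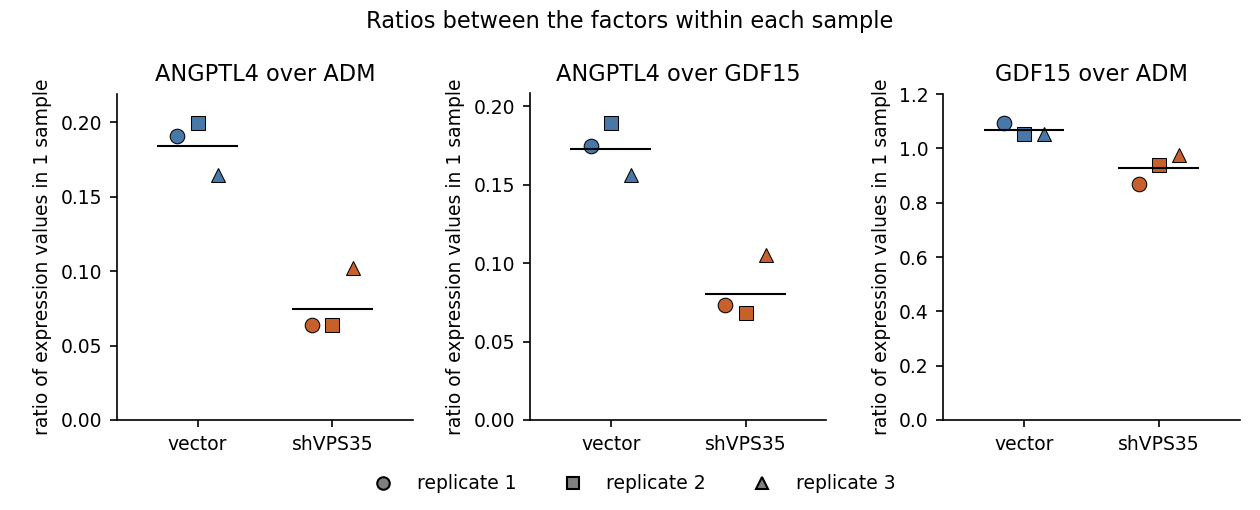
Ratio of the expression values of a pair of factors within each sample (vertical axis, from 0, no unit) in vector and shVPS35 cells. Symbols are single samples by replicate number and lines geometric means of 3 samples; both ratios with ANGPTL4 on top drop, by 2.47-fold over ADM and 2.15-fold over GDF15, and GDF15 over ADM drops by 1.15-fold.

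Genes that act with these factors were read from lists of their receptors, processing enzymes, relatives and targets. Over all 16063 genes tested the share listed in either direction was 2.65%, and nothing is read from the counts. Of the 14 other genes on the adrenomedullin list, which holds the amidating enzyme PAM, CALCRL and the RAMP genes, only ADM2 was listed, and it rose. ADM2 encodes intermedin, a related peptide that acts on the same receptors. ADM2 read 1.46, 1.35 and 1.54 in vector cells, against 3.71, 3.54 and 3.16 in shVPS35 cells, with no overlap. The mean rose from 1.45 ± 0.0954 to 3.47 ± 0.282 (SD, n = 3 per group; log2(value + 1) difference 0.87 ± 0.11, SE, limma adjusted p = 1.2e-04), in the opposite direction to ADM. No receptor gene from the list was in the table, and genes outside it may have been tested without passing or left out of the test.

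Of the 21 other genes on the list of ANGPTL family members and partners of lipoprotein lipase, only LPL was listed. LPL encodes the lipase that ANGPTL4 inhibits, and it hydrolyses triglycerides of circulating lipoproteins. LPL read 0.02, 0 and 0.07 in vector cells, against 0.91, 1.27 and 0.64 in shVPS35 cells. All shVPS35 samples were above all vector samples, but the level was low throughout, and LPL was too low for the limma filter of 1 or more in at least 3 samples. Its adjusted p in the authors' deposited table was 5.5e-06. No fold is given, because 1 vector sample is at 0 and the others are close to it. None of the 29 other genes on the PPAR target list was listed, a list that does not hold LPL, which is also a PPAR target. PPARG itself, which encodes the PPAR of adipocyte differentiation, was at 22.9 ± 0.806 in vector and fell to 11.1 ± 1.5 (SD, n = 3 per group; limma adjusted p = 1.7e-05).

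No other gene was listed among the 21 on the list that holds GFRAL, its co-receptor RET, the proprotein convertases and TGF-beta family ligands. Among the other 30 genes of the ATF4 and unfolded protein response list, NUPR1 alone was listed. NUPR1 encodes a small stress-induced chromatin protein and is, like GDF15, induced through ATF4. It had expression values of 37.2, 38.6 and 39.0 in vector cells, against 84.7, 85.1 and 87.0 in shVPS35 cells. NUPR1 thus rose, to a mean of 85.6 ± 1.23 from 38.3 ± 0.920 (SD, n = 3 per group; log2(value + 1) difference 1.14 ± 0.04, SE, limma adjusted p = 9.3e-08), while GDF15 fell.

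The DNA damage response genes in the table fell as GDF15 did. Of the 26 genes other than GDF15 on that list, 3 were listed and all 3 fell, namely CDKN1A, PLK2 and PLK3. The list was chosen with earlier results of these data known. The background was 1.47% of the 16063 genes tested listed as lower, and 55.4% of all listed genes fell. Nothing is therefore read from this count. CDKN1A, which encodes the cell cycle inhibitor p21, had 237, 236 and 230 in vector cells, against 83.3, 94.4 and 92.4 in shVPS35 cells. It was left at 38.4% of the vector mean, PLK2 at 42.5% and PLK3 at 49.5%, beside 43.0% for GDF15. PLK2 and PLK3 encode polo-like kinases that respond to stress. MDM2, BBC3 and the other 21 genes of this list were not in the table. By the authors' deposited table the 4 listed genes of this list, GDF15 included, had a median log2 fold change of -1.33, smaller in size than the -1.55 of all listed genes that fell, and the median over all 426 listed genes, which went both ways, was -1.08.

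None of the 39 other genes on the hypoxia and glycolysis list was listed. VEGFA, CA9, SLC2A1, PGK1, BNIP3, EGLN3 and NDRG1, all HIF targets, are on that list, so ADM and ANGPTL4 were its only members in the table. Absence from the table does not show that a gene was unchanged, because the authors' limit was an absolute log2 fold change of 1. Of 27 stress-responsive transcription factors and sensors, 2 were listed, PPARG and FOSL1, and both fell. FOSL1 encodes an AP-1 subunit and fell, with means of 29.1 ± 0.649 and 13.6 ± 1.66 (SD, n = 3 for vector and for shVPS35; limma adjusted p = 8.5e-06). HIF1A, EPAS1, ATF4 and EGR1 were not in the table. Of 27 immediate early genes and feedback inhibitors of MAPK signalling, FOSL1 among them, 10 were listed and all 10 fell in the authors' deposited table, with DUSP4, a MAP kinase phosphatase gene, left at 8.37% of its vector mean and CCND1, which encodes cyclin D1, at 28.6%. These lists were chosen with earlier results of these data known. Of the 16063 genes tested 1.47% were listed as lower, and 55.4% of all listed genes fell. Nothing is therefore read from the counts.

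**Figure D3:**
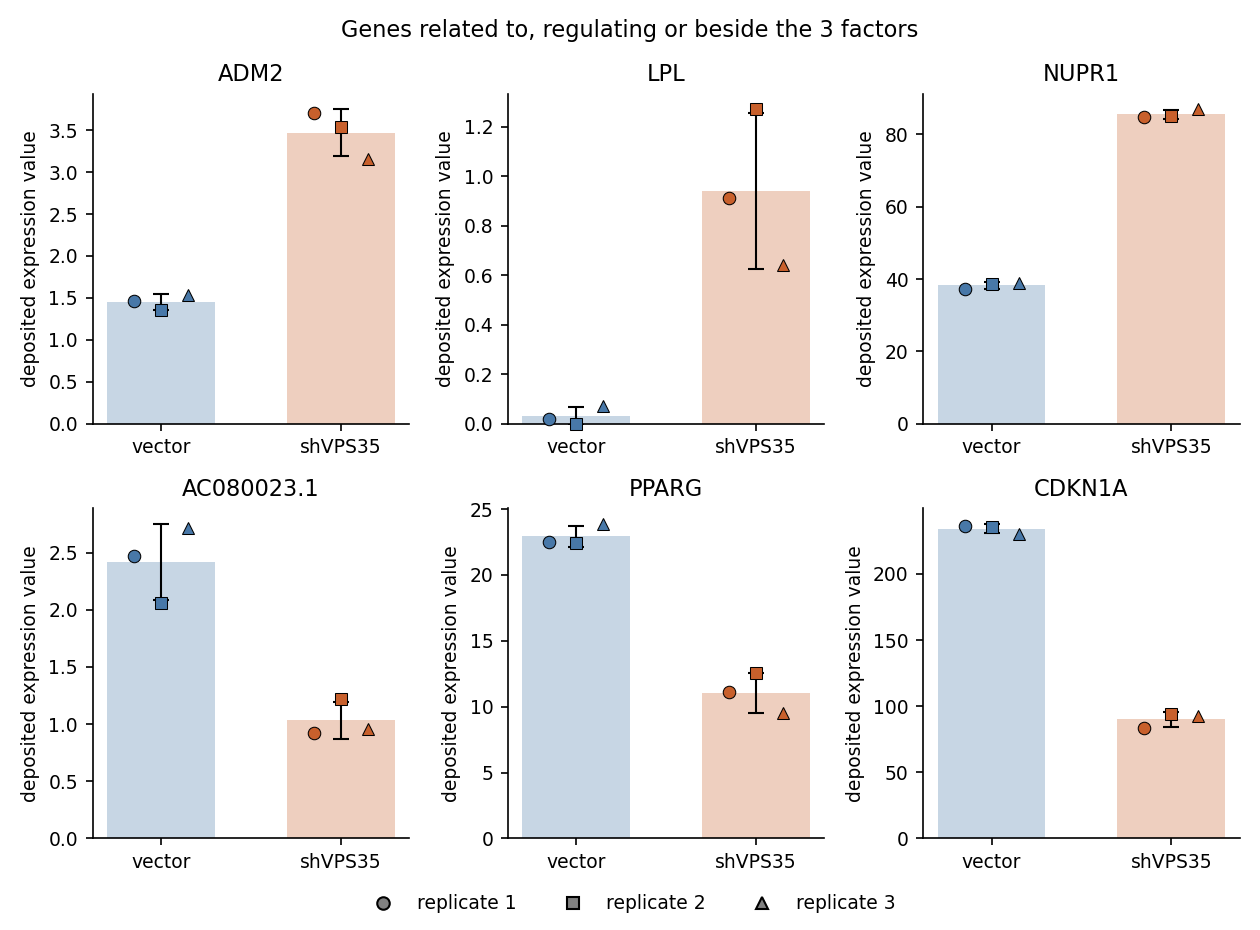
Deposited expression value (vertical axes, from 0, unit not named in the header) of ADM2, LPL, NUPR1, AC080023.1, PPARG and CDKN1A in vector and shVPS35 cells. Bars are means, error bars SD (n = 3 per group) and symbols single samples by replicate number; ADM2, LPL and NUPR1 are higher in all shVPS35 samples, and AC080023.1, PPARG and CDKN1A lower.

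Other secreted factors induced by hypoxia or stress that were in the table fell together with the 3. Of 30 such genes, 7 were listed and all 7 fell in the authors' deposited table, namely the interleukin genes IL1A and IL1B, the chemokine genes CXCL2 and CXCL8, the EGF receptor ligand genes AREG and EREG, and the lymphatic growth factor gene VEGFC. As the list was chosen with earlier results of these data known, nothing is read from this count. The background was 1.47% of the 16063 genes tested, and 55.4% of all listed genes fell. For these 7 genes the shVPS35 mean was 10.3% (IL1B) to 46.6% (AREG) of the vector mean, and by the authors' deposited table their median log2 fold change was -1.92, against -1.55 for all listed genes that fell. The 10.3% rests on low values, 0.65, 0.47 and 1.21 in vector cells against 0.09, 0.1 and 0.05 in shVPS35 cells. IL1A was also low in shVPS35 cells, at 0.3, 0.1 and 0.14. VEGFC had expression values of 6.13, 6.3 and 7.21 in vector cells, against 1.41, 1.86 and 1.91 in shVPS35 cells. It was left at 26.4% of the vector mean, beside 20.3% for ANGPTL4. EREG had 10.2, 10.8 and 12.4 in vector cells, against 3.46, 3.21 and 3.64 in shVPS35 cells. IL1B and CXCL8 stayed below the filter for the limma test. The 23 genes not in the table included IL6, VEGFA, FGF21, STC1 and STC2.

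**Figure D4:**
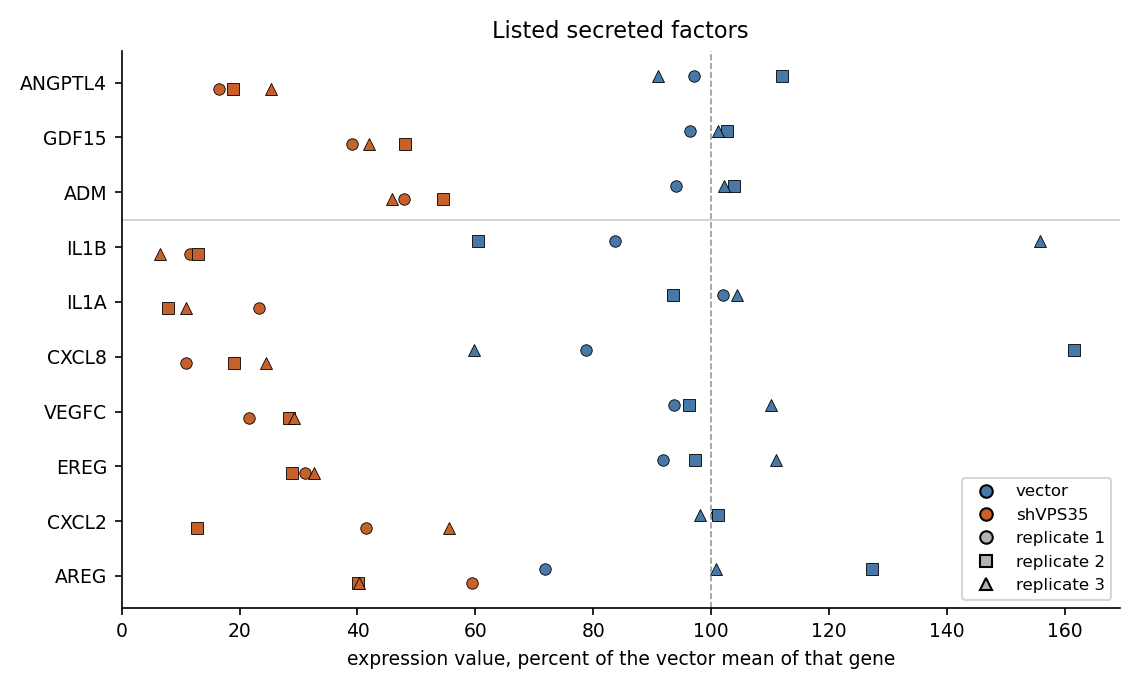
Expression value of each listed secreted factor as a percent of that gene's vector mean (horizontal axis, from 0) in single vector and shVPS35 samples; symbols give the replicate number. The 3 factors described here are above the grey line and the 7 others below it, and in every gene all shVPS35 samples lie left of all vector samples. The same held for 50.9% of all listed genes.

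The genes whose profiles over the 6 samples were most like each factor were found by the root mean square distance between log2(value + 1) profiles centred on their means, among 123 other listed genes with a mean value of at least 5. For ADM these were ARNTL2, a gene of the circadian clock family (distance 0.058), PPARG (0.062) and the steroid sulfatase gene STS (0.068). PPARG stood at 48.2% of its vector mean and was, like ADM, highest in sample 2 of the shVPS35 samples. For GDF15 they were STS (0.078), the orphan receptor gene GPRC5A (0.078) and the collagen receptor subunit gene ITGA2 (0.079). ADM came eighth from GDF15 (0.111) and GDF15 in position 11 from ADM. For ANGPTL4 they were the noncoding RNA LINC00707 (0.123), the annexin gene ANXA3 (0.132) and the transglutaminase gene TGM2 (0.156), which were left at 17.7% (TGM2) to 29% (ANXA3) of their vector means. From ANGPTL4, GDF15 came in position 28 (0.397) and ADM in position 51 (0.499) among the 123 genes. The measure takes in the size of the difference between the groups, and it is given as a description.

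In GENCODE 29 the nearest listed gene to ADM was AC080023.1, an RNA gene on the opposite strand (chromosome 11, 10302657 to 10303704). It lies 976 bases before the GENCODE start of ADM and does not overlap that gene. It was singled out after its values had been seen. It read 2.47, 2.06 and 2.72 in vector cells, against 0.92, 1.22 and 0.96 in shVPS35 cells. The mean fell to 42.8% of vector, beside 49.5% for ADM (log2(value + 1) difference -0.75 ± 0.12, SE). AC080023.1 met the limma filter of 1 or more in at least 3 samples only through its vector samples, so no p-value is given. The nearest listed gene to ANGPTL4 was ADAMTS10, 206 kb away, which rose, and that to GDF15 was B3GNT3, 562 kb away, which fell. No annotated gene overlaps ADM. The antisense gene RAB11B-AS1 overlaps the last base of ANGPTL4, and MIR3189 lies within GDF15 on the same strand, and neither was in the table. The sources used here do not say whether the libraries kept strand, which matters for ANGPTL4 only at that last base. For MIR3189 and GDF15, on the same strand, strand would not tell reads apart.

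Cell type markers were read beside these results. Their lists too were chosen with earlier results of these data known, so nothing is read from the counts. The background was 2.65% of the 16063 genes tested listed in either direction (1.47% lower), and 55.4% of all listed genes fell. Of 22 markers of gastric and other epithelium, 4 were in the table, PSCA, MUC13, GKN1 and GKN2, and all 4 fell. EPCAM, CDH1, KRT8 and KRT18 were not, so these defining epithelial genes could not be used to check the labelled cell type. Of 21 markers of other cell types, 4 were listed. Their summed value was 58.0 to 61.3 in the vector samples and 20.8 to 24.2 in the shVPS35 samples, most of it from CD68, a glycoprotein of lysosomes used as a macrophage marker, and none of the 4 was at 0. DCN rose, CD68 and CDH5 were lower in every shVPS35 sample, and LUM overlapped between the groups. The other 17 are not analysed here, and the part of these markers in the falls of ADM, ANGPTL4 and GDF15 was not tested.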

How the data were processed

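The deposited table holds RNA-seq results for 6 samples of MKN28 cells, grouped by sample title. Per the submitters' processing notes, fastp, HISAT, RSEM and the build GRCh38.p13 were used (versions and roles not given in the sources). The authors deposited an expression signal per gene and sample with 2 decimals, whose unit the header does not name. Per the file headers, the table also holds the authors' ratio (fold change), its log2, a p-value and an adjusted p-value, from a test that the sources used here do not name. How many genes the authors tested was worked out as the number (16063) that makes the Benjamini-Hochberg rank whole, within 0.01, for 387 of 422 nonzero adjusted p-values.

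Signals were put on the log2(value + 1) scale and compared by limma 3.58.1 with its trend and robust options (statmod 1.5.0, R 4.3.3). The 292 listed genes that reached 1 in 3 or more samples entered, with Benjamini-Hochberg adjustment over all 292 and a threshold of 0.05. All 3 members passed that filter. The test was checked on simulated data. Ratios between members used the values without a pseudocount and exact permutation tests (Python 3.11.15, scipy 1.17.1). Positions come from GENCODE 29 on GRCh38, which matched 421 of 426 identifiers, and promoters from RefSeq on GRCh38.p14, whose primary assembly is that of GRCh38.p13; 278 of 426 symbols had a promoter window. Named genes were the members, VPS35, listed members of 12 gene lists (up to 4 per list in detail) and the 3 nearest profiles per member. Some genes are not reported here and were left out of the lists. Members and lists were chosen with earlier results of these data known. Alternatives were other pseudocounts, filters, scalings, variance models, a replicate block and leaving out each sample.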

Additional observations from a re-analysis of the deposited data

How the results depend on the processing

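ADM, ANGPTL4, GDF15 and VPS35 stayed lower in shVPS35 cells and past the limma threshold under all 14 alternatives run. Only genes called on these same samples are listed, and all 292 tested ones passed in the main run. Passing the threshold is therefore no further evidence, and only the range of the differences is read. At the filter of 5, ANGPTL4 entered through its vector samples alone. The log2 differences ranged from -1.06 to -0.78 for ADM, -2.27 to -1.17 for ANGPTL4, -1.27 to -0.98 for GDF15 and -2.31 to -1.94 for VPS35. The ANGPTL4 value depends on the pseudocount, with -2.27 at 0.1 and -1.17 at 5. Trimmed-mean scaling moved the median tested gene by 0.18 and gave -0.78 for ADM, -1.77 for ANGPTL4 and -0.98 for GDF15. With a filter of 5 the limma test called 140 genes, 78 lower and 62 higher, instead of 292, because fewer genes were tested.

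Leaving out 1 sample at a time kept the direction of every ratio. The log2 difference ranged from -1.53 to -1.19 for ANGPTL4 over ADM, -1.29 to -0.98 for ANGPTL4 over GDF15 and -0.24 to -0.16 for GDF15 over ADM, and the smallest exact p that 5 samples allow was 0.2. With the replicate number as a block, 291 genes passed the limma test, the members' adjusted p was at most 1.2e-04, and the sign-flip test of each ratio gave its smallest exact p of 0.25. The sample titles do not say if same-numbered samples form pairs. Deviations of same-numbered samples correlated at -0.06, -0.09 and 0.03 over 292 genes, which with 3 samples per group cannot settle it. Read depth is unknown, which limits what can be said of LPL, IL1A, IL1B and CXCL8.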
